A study of Homo sapiens with 8 samples.

Results

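The stretch chr6:25500001-33500000 (hg19) carries the largest cluster of histone and tRNA genes in the human genome and, next to it, the major histocompatibility complex (MHC). Its accessible regions were the merged peaks of 4 ATAC-seq lists whose midpoints lay between these positions, joined where they overlapped by at least 1 bp. They numbered 836 of the 146099 regions in the genome and held 2803 of 411408 peaks. Position alone chose them, and no measured value did. The histone and tRNA part, before 29 Mb, held 349 regions and the MHC part, from 29 Mb on, held 487, and the parts are described apart.

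ATAC-seq measures open chromatin by the places where a transposase can cut and tag DNA. The assay was run on G401, a standard kidney rhabdoid tumour line. Its cells have lost SMARCB1, which belongs to the core of SWI/SNF, a complex that moves and evicts nucleosomes. All samples came from 1 stable derivative of this line with a doxycycline-inducible SMARCB1, kept in serum free of tetracycline. Day 0 was the uninduced state, labelled SMARCB1 -/-, and days 1, 3 and 7 followed doxycycline at 1 µg/ml, labelled SMARCB1 +/+. The labels do not say whether the derivative was a single clone. Each day had 2 replicates. Since a single peak list was deposited for each day, the spread between replicates is not known, and changes over time carry no p-value. A doxycycline-treated line without the SMARCB1 construct was not analysed here, so the effects of the drug and of SMARCB1 cannot be told apart.

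The stretch is known for genes of a few large families. Replication-dependent histone genes are short, lack introns and are transcribed in S phase, when new DNA has to be packed into nucleosomes. The tRNA genes among them are read by RNA polymerase III. Around them lie butyrophilin genes, which encode immune receptors, and zinc finger genes, which encode DNA-binding repressors. In the MHC, HLA class I genes encode the molecules that show peptides from inside the cell to T cells. HLA class II genes, toward its far end, encode those that show peptides taken up from outside. Between them lie complement genes, the TNF family and the HSP70 chaperones.

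In the RefSeq gene order of the assembly GRCh38.p14, 56 histone genes, 135 tRNA genes, 6 butyrophilin genes and 14 zinc finger genes lie between CARMIL1 and TRIM27. These genes mark the histone and tRNA part by order only, and CARMIL1 and TRIM27 do not sit exactly on its hg19 borders. The files carry no gene names, and no regions were assigned to genes, promoters, exons or introns, so regions are named by position and no sequence is shown.

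The depth behind the lists was close. The genome-wide background, the read level that the peak caller took for the list as a whole, was 6.34, 6.04, 6.73 and 6.10 reads on days 0, 1, 3 and 7. Heights below are scaled summits, the reads at the summit of a peak divided by this background. The list taken as day 0 was the only one left after the names of the others had been matched to days 1, 3 and 7. Intervals are 95% intervals. For shares they are exact Clopper-Pearson intervals, which take regions as independent. For ratios of summits they hold nothing but the counting error of the reads.

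Before induction the histone and tRNA part was packed with tall, broad regions. It had 283 regions with a day 0 peak, and the median summit there was 20.5 times the background, against 13.4 at the 333 regions of the MHC part and 8.99 at all 78579 regions with a day 0 peak. A summit of at least 15 times the background was reached by 205 of the 283 regions (72.4%, interval 66.8 to 77.6). The share was 45.6% in the MHC part (152 of 333, interval 40.2 to 51.2), 23% on the rest of chromosome 6 and 28.1% in the genome. The quartiles were 14.5 and 25.1 in the histone part, 7.88 and 23.8 in the MHC part and 5.52 and 16.4 in the genome. The highest summit of the histone part, 35 times the background, stayed below the 39.9 of the MHC part and the 44.6 reached elsewhere. The histone part therefore held many tall regions but none of the very tallest.

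**Figure D1:**
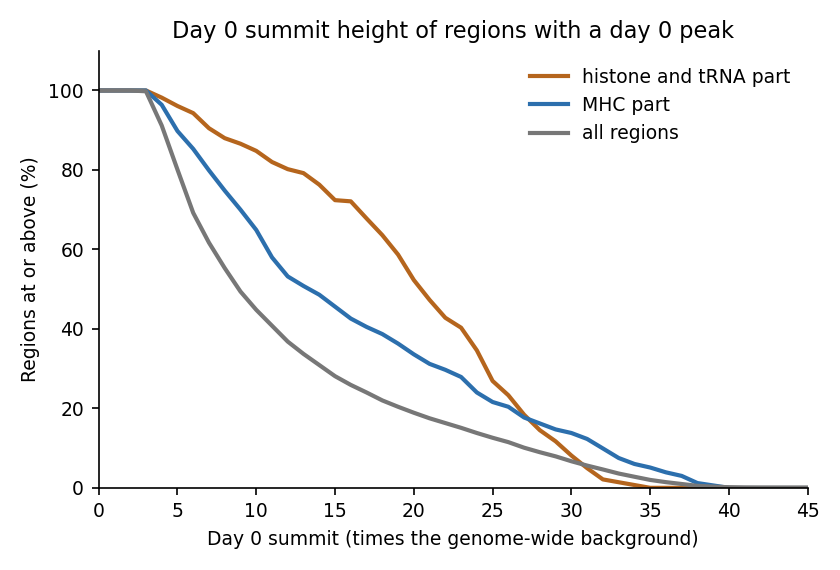
Share of regions with a day 0 peak (y axis, %) whose day 0 summit reached the height on the x axis, in times the genome-wide background, for the histone and tRNA part (283 regions), the MHC part (333) and all regions (78579). At 15 times the background the curves stand at 72.4%, 45.6% and 28.1%, and between 27 and 28 the MHC curve crosses above the histone curve.

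Day 0 regions of the histone part were also wider and closer together. Their median width was 828 bp, against 563 bp in the MHC part and 458 bp in the genome, and 37 of them (13.1%) were at least 1500 bp wide, against 7.51% and 4.91%. The median gap to the next day 0 region was 5.12 kb in the histone part, 7.28 kb in the MHC part and 10.9 kb in the genome. The local background around the peaks, as the caller took it, was raised as well. Its median was 4.03 times the genome-wide background in the histone part, 3.25 times in the MHC part and 2.02 times over all peaks on day 0. The authors' fold, which divides a summit by this local background, therefore set the histone part less far apart: its median on day 0 was 4.09 over the histone peaks, 3.68 over the MHC peaks and 3.81 over all peaks.

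Counted in 1 Mb windows, the tall regions of the histone part were among the densest in the genome. The window from 27 to 28 Mb held 78 regions with a day 0 summit of at least 15 times the background, which ranked 3 among 2762 windows. The windows from 26 to 27 Mb and from 28 to 29 Mb held 65 and 61, at ranks 9 and 13, against a median of 4 over all windows. By the number of regions with any day 0 peak the same windows stood lower, at ranks 55, 102 and 109. The highest count of tall regions in the MHC part was 49, from 31 to 32 Mb at rank 43, and the window from 29 to 30 Mb held 10.

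The regions were unevenly spread inside each part. In windows of 250 kb the histone part held 5 to 44 regions. The densest, from 26.00 to 26.25 Mb, had 44 regions, 30 of them with a peak on every day. Before it lay 2 thin windows, chr6:25500001-25750000 with 5 regions and chr6:25750001-26000000 with 8, and the window from 26.75 to 27.00 Mb held 5. The MHC part held 6 to 49 regions per window. It was densest from 30.50 to 30.75 Mb and from 31.50 to 31.75 Mb, with 49 regions each, and thinnest from 32.25 to 32.75 Mb, where windows of 6 and 8 regions followed each other.

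**Figure D2:**
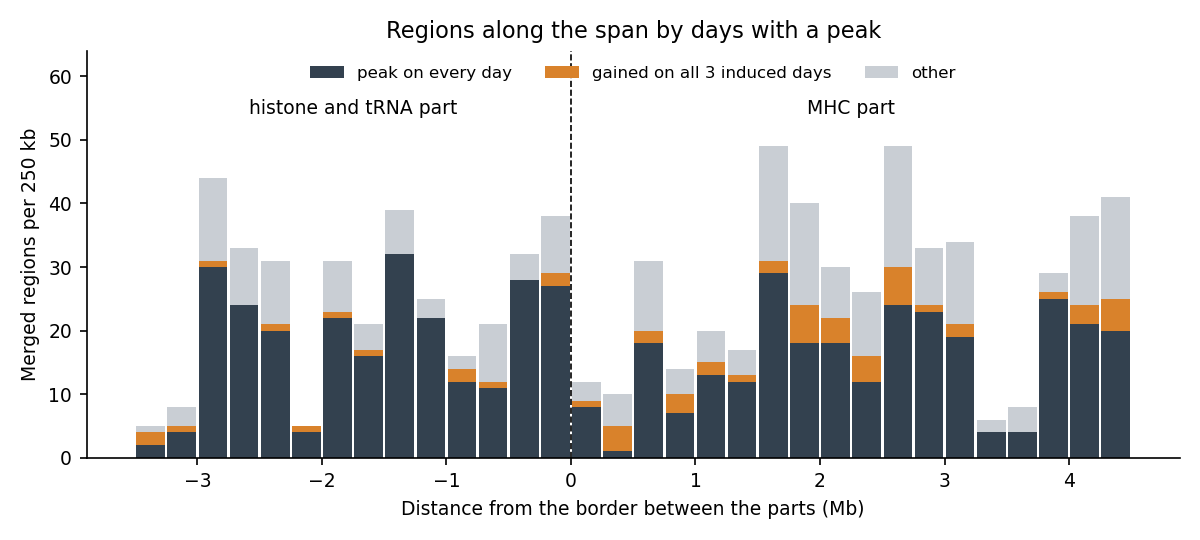
Merged regions per 250 kb (y axis) against the distance from the border between the parts at 29 Mb (x axis, Mb), stacked by regions with a peak on every day, regions gained on all 3 induced days and all others. Dense windows of up to 44 regions in the histone part and 49 in the MHC part alternate with thin ones of 5 to 8.

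At a finer scale, the densest stretch of up to 100 kb in the histone part ran over chr6:26016644-26114098 and held 21 regions. Of these, 13 had a peak on every day and 0 were gained on all 3 induced days. Its day 0 summits spanned 7.09 to 30.4 times the background. The densest stretch of the MHC part was chr6:30638591-30737735, where 18 of 25 regions were present on every day and 1 was gained on all 3 induced days. Its day 0 summits spanned 5.04 to 37.8. The longest gap without a peak on any day was chr6:26758822-26923777 (165 kb) in the histone part and chr6:32441639-32557475 (116 kb) in the MHC part.

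The tallest regions of both parts stood far above the background on all 4 days. The tallest of the histone part, chr6:26556068-26557375, had summits of 222, 211, 186 and 166 reads on days 0, 1, 3 and 7, or 35, 34.9, 27.7 and 27.2 times the background. The next, chr6:27439995-27441402, had 219, 207, 213 and 203 reads. Of the MHC part, chr6:33385350-33387030 had 253, 241, 236 and 228 reads, and chr6:32162784-32164457 had 251, 247, 245 and 234. The tallest histone region was lower on days 3 and 7 than on days 0 and 1, and the other 3 kept close to their day 0 reads. By the authors' fold the leading regions were others: chr6:27059352-27060304 in the histone part had folds of 12.3, 12.5, 11.5 and 12.7, and chr6:29815546-29816316 in the MHC part had 10.8, 8.78, 8.41 and 9.03.

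The widest histone region on day 0 was chr6:28601106-28603501, with a day 0 peak of 2357 bp and 201, 173, 192 and 163 summit reads on the 4 days. The widest MHC region was chr6:33265200-33268049, with a day 0 peak of 2804 bp and 200, 187, 187 and 191 reads. Neither summit changed by as much as 1.5 times.

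The question of the time course is how accessibility changes as SMARCB1 returns. The number of peaks in the histone part was close to constant, at 294, 326, 321 and 313 on days 0, 1, 3 and 7. This was 1.11, 1.09 and 1.06 times the day 0 number on days 1, 3 and 7. The MHC part went from 346 to 412, 414 and 377 peaks, or 1.19, 1.2 and 1.09 times. Over the genome the ratios were 1.36, 1.46 and 1.28, and on the rest of chromosome 6 they were 1.44, 1.59 and 1.4. The covered length followed the counts, with 260, 275, 273 and 260 kb in the histone part and 237, 278, 287 and 260 kb in the MHC part. The direction of the counts depended on the length of the lists. When each list was cut to the same number of peaks, the histone part held 294, 279, 273 and 279. The MHC part then held 346, 331, 318 and 320, so both parts had fewer peaks on each induced day than on day 0.

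Most histone regions had a peak on every day: 254 of 349 (72.8%, interval 67.8 to 77.4), against 41.6% of all regions in the genome. Of the MHC regions 276 of 487 did (56.7%, interval 52.1 to 61.1). Among day 0 regions with summits of at least 15 times the background, the parts and the genome were close. A peak on every day was found at 200 of 205 in the histone part, 145 of 152 in the MHC part and 21682 of 22056 in the genome. The part played by height in the wider contrast was not tested. Regions gained on all 3 induced days, with no day 0 peak, numbered 13 in the histone part (3.72%, interval 2 to 6.29) and 47 in the MHC part (9.65%, interval 7.18 to 12.6), against 13.1% in the genome. Such shares are taken over all regions of a part, and both parts were dense in day 0 regions. A lower share therefore does not mean fewer gains per length of DNA, which were not compared. Regions seen in 1 induced list alone made up 8.88% of the histone part (31), 14.8% of the MHC part (72) and 21.7% of all regions. Regions on day 0 alone numbered 9 (2.58%) and 17 (3.49%), against 4.26%. With each list cut to the same number of peaks, the share gained on all 3 induced days was 0.958% in the histone part, 5.15% in the MHC part and 9.68% in the genome, and the share on day 0 alone was 6.71%, 10.3% and 12.1%. The order of the parts and the genome was the same.

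**Figure D3:**
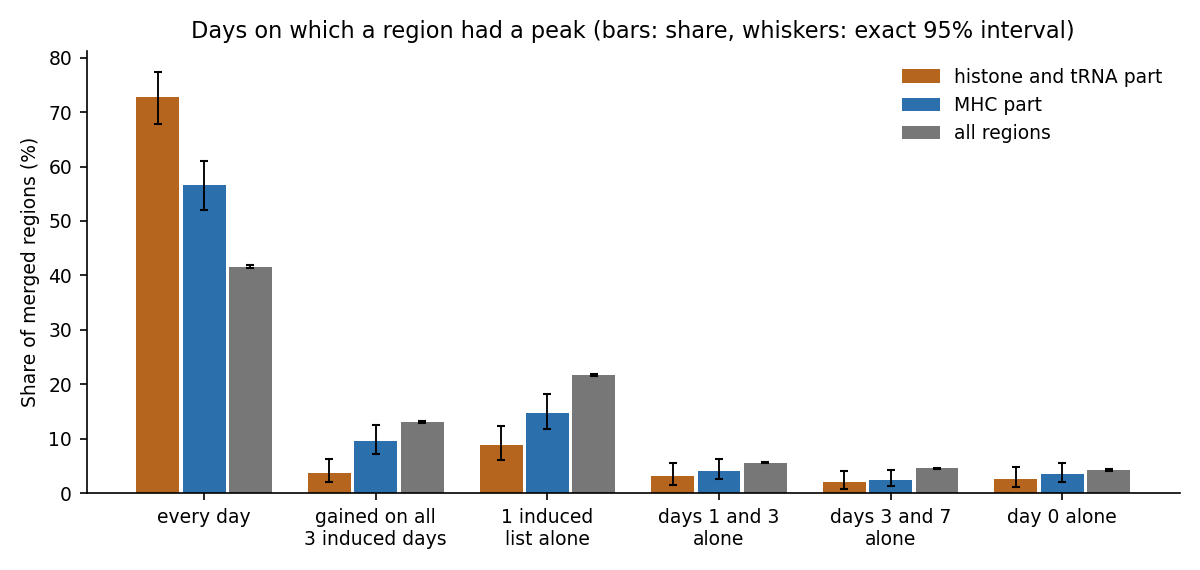
Share of merged regions (y axis, %) by the days on which they had a peak, for the histone and tRNA part (349 regions), the MHC part (487) and all regions (146099); bars are shares and whiskers exact 95% intervals. Regions with a peak on every day make up 72.8%, 56.7% and 41.6%, and those gained on all 3 induced days 3.72%, 9.65% and 13.1%.

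Regions without a day 0 peak numbered 66 in the histone part (18.9%) and 154 in the MHC part (31.6%), against 46.2% of all regions. In the MHC part 98 of the 154 were already present on day 1 (63.6%), 45 were new on day 3 (29.2%) and 11 on day 7 (7.14%). The shares over all regions without a day 0 peak were 57.7%, 30.9% and 11.4%. In the histone part 43 of the 66 were present on day 1, 13 were new on day 3 and 10 on day 7.

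Few day 0 peaks of the histone part were lost. Of its 294 day 0 peaks, 16, 14 and 26 had no overlapping peak on days 1, 3 and 7 (5.44%, 4.76% and 8.84%), against 13%, 14.6% and 17.5% of all day 0 peaks. Of 346 day 0 peaks in the MHC part, 30, 41 and 44 had none (8.67%, 11.8% and 12.7%). These losses were not matched for height, and a larger share of day 0 regions was tall in both parts than in the genome. None of the 82 histone or 72 MHC peaks with a day 0 fold of at least 6, called strong here, was without a peak on day 1, 3 or 7. The upper Clopper-Pearson limits are 4.4% and 4.99%, and the simpler floor of 3 counts gives 3.66% and 4.17%. Over the genome 0%, 0.0121% and 0.0725% of strong day 0 peaks were lost on these days.

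Strong new peaks were few. In the histone part 0 of 85 strong day 1 peaks, 3 of 86 strong day 3 peaks and 0 of 79 strong day 7 peaks lay where day 0 had none. For the counts of 0 the upper Clopper-Pearson limits are 4.25% on day 1 and 4.56% on day 7, and the floor of 3 counts gives 3.53% and 3.8%. The genome-wide shares were 11.6%, 19.8% and 11.6%. A fold of 6 takes more reads where the local background is high. On days 1, 3 and 7 its median was 3.59, 3.38 and 3.37 times the genome-wide background at histone peaks. Over all peaks it was 1.84, 1.75 and 1.75 times, and the effect of this on the shares was not tested. The 3 strong new histone peaks of day 3, named after their values were seen, were chr6:25971388-25971876 with a fold of 6.6, chr6:26994057-26994605 with 8.48 and chr6:28402081-28402622 with 6.08. For the MHC part the counts were 3 of 88, 7 of 84 and 3 of 82. At a fold limit of 4 in place of 6 the counts were 8 of 160, 9 of 162 and 6 of 152 in the histone part (5%, 5.56% and 3.95%). They were 14 of 179, 20 of 178 and 13 of 188 in the MHC part (7.82%, 11.2% and 6.91%), against 19.8%, 27.2% and 21.2% over the genome.

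The gained regions of the MHC part with the highest folds all peaked on day 3. In chr6:31213517-31214549 the summits held 54, 86 and 73 reads on days 1, 3 and 7 (folds 7.81, 10.2 and 10). In chr6:29415272-29415881 they held 49, 87 and 48 reads (folds 7.1, 11.4 and 6.9). In chr6:30975290-30976018 they held 40, 86 and 55 reads, and in chr6:33020773-33021573 they held 38, 60 and 49. The first of these was close to its day 3 height on day 7, with a ratio of scaled summits of 0.936 (interval 0.675 to 1.29). The second had come down to 0.608 of it (interval 0.418 to 0.875).

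Over all 47 gained MHC regions, 29 were highest on day 3 (61.7%), and 35 were lower on day 7 than on day 3 (74.5%). The shares over all gained regions of the genome were near these, at 58.5% and 77.3%. Their median scaled summits were 6.95, 8.18 and 6.23 on days 1, 3 and 7, next to 6.62, 8.03 and 6.39 over all gained regions of the genome. They lay close to regions that were already open: 34 of the 47 were within 10 kb of a day 0 region (72.3%, interval 57.4 to 84.4), against 53.5% of all gained regions, in a part where day 0 regions were themselves close together.

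The 13 gained histone regions were lower, with median scaled summits of 4.14, 5.06 and 4.75. The highest by fold, chr6:26994057-26994623, had 41, 74 and 39 reads on days 1, 3 and 7, and its day 7 summit was 0.581 times that of day 3 (interval 0.384 to 0.868). In chr6:28127833-28128682 the reads were 81, 84 and 40, a ratio of 0.525 (interval 0.351 to 0.774). The weakest of the 4 named by fold, chr6:25671432-25671859, had 25, 29 and 25 reads. Of the 13, 9 lay within 10 kb of a day 0 region.

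Regions of the remaining patterns mostly had low folds. On day 0 alone, the highest fold in the histone part was 5.01, at chr6:26687213-26687674 with 36 reads, and in the MHC part 3.68, at chr6:30117137-30117345 with 26 reads. Regions on days 1 and 3 alone numbered 11 in the histone part (3.15%) and 20 in the MHC part (4.11%), against 5.6% of all regions. Their highest day 3 folds were 5.18 at chr6:28278933-28279325 (31 and 39 reads) and 3.7 at chr6:32039416-32039932 (67 and 61 reads). Those on days 3 and 7 alone numbered 7 (2.01%) and 12 (2.46%), against 4.55%. Their highest day 3 folds were 4.4 at chr6:25777283-25777656 and 4.64 at chr6:29629514-29629903. By height some of these regions were tall. Named after their values were seen, chr6:26198614-26198835 had 123 reads on day 0 alone, 19.4 times the background, with a fold of 1.73. Likewise chr6:26029049-26029321 had summits of 22.7 and 19.2 times the background on days 1 and 3 alone, with folds of 1.77 and 1.76. Both lay where the local background was high, at 70.5 reads on day 0 and at 76.9 and 73.1 reads on days 1 and 3.

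At regions with a peak on every day, summits of the histone part stayed level on day 1 and were slightly lower on days 3 and 7. The median log2 change of the scaled summit from day 0 was 0.01 on day 1 (SD over 254 regions 0.23), -0.16 on day 3 (SD 0.22) and -0.15 on day 7 (SD 0.27). A summit below that of day 0 was found at 117, 225 and 205 of the 254 regions (46.1%, 88.6% and 80.7%), against 31%, 62.2% and 58.4% of all such regions in the genome. In the MHC part the medians were 0.05, -0.12 and -0.05 (SD over 276 regions 0.30, 0.36 and 0.28), with 95, 204 and 184 summits below day 0. The medians over the genome were 0.08, -0.08 and -0.04.

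The lower summits of days 3 and 7 went with a lower local background, whose median log2 change in the histone part was -0.01, -0.19 and -0.18. In the MHC part it was -0.01, -0.12 and -0.11, and over the genome it was 0.00, -0.04 and -0.04. On day 0 the local background equalled the genome-wide one at 18.5% of all peaks, 4.76% of histone peaks and 9.25% of MHC peaks. A fall could hardly show at such peaks. At day 0 summits of at least 15 times the background, the changes on days 3 and 7 were closer. They were -0.19 and -0.18 in the histone part, -0.17 and -0.14 in the MHC part and -0.16 and -0.12 over the genome. By the authors' fold the median changes turned positive on days 3 and 7, at 0.02 and 0.04 in the histone part, 0.01 and 0.08 in the MHC part and 0.02 and 0.03 over the genome. The direction of these small shifts thus depended on the background they were read against. No control library was among the samples, so the local background may hold reads of the same peaks and their neighbours. It is then not independent of the summits, and a shared fall may be partly built in.

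The change was also read apart for tall and lower regions, a split chosen after the data had been seen. Among regions with a day 0 summit of at least 15 times the background, the medians on days 1, 3 and 7 were 0.01, -0.16 and -0.14 at 200 histone regions, and 0.03, -0.16 and -0.06 at 145 MHC regions. At all 21682 such regions they were 0.04, -0.14 and -0.08. Below that height the 54 histone regions had medians of 0.05, -0.14 and -0.20, and the 131 MHC regions had 0.12, -0.02 and -0.02, against 0.15, 0.01 and 0.02 at all 39104 such regions. Among tall regions the day 3 medians of both parts were thus near that of the genome. Among lower regions the histone medians of days 3 and 7 were below 0 while those of the genome were slightly above it. These lower regions were not of equal height, with a median day 0 summit of 10.7 in the histone part. It was 9.3 in the MHC part and 7.72 over the genome, and the part played by this difference was not tested.

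**Figure D4:**
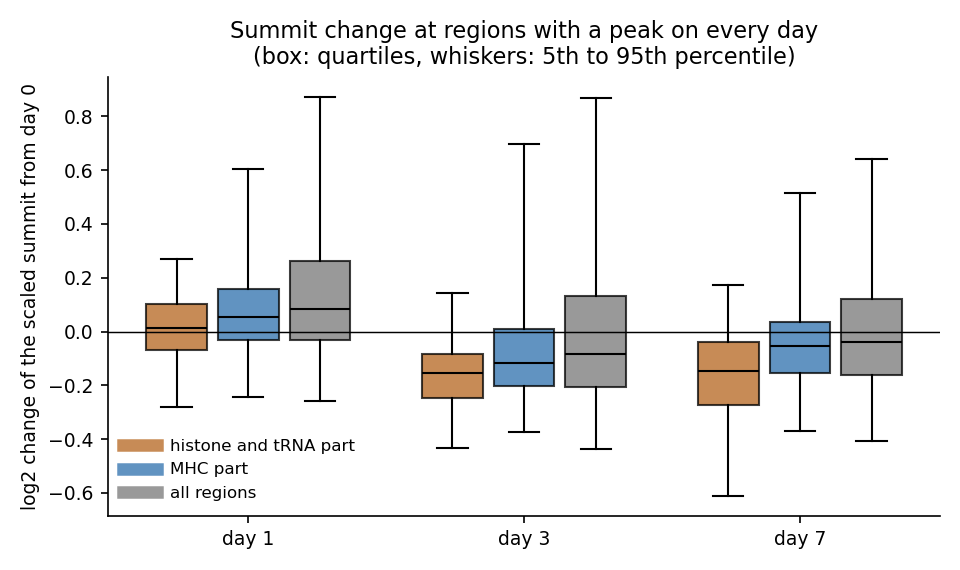
Log2 change of the scaled summit from day 0 (y axis) on days 1, 3 and 7 at regions with a peak on every day, for the histone and tRNA part (254 regions), the MHC part (276) and all regions (60786); boxes span the quartiles, lines are medians and whiskers reach the 5th and 95th percentiles over regions. The histone boxes are the narrowest on day 3 and lie lowest on days 3 and 7, with medians of -0.16 and -0.15.

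Lower summits on days 3 and 7 were found along most of the histone part. In all 11 of its 250 kb windows with at least 10 regions present on every day, the median change was below 0 on day 3 and on day 7. It lay between -0.20 and -0.10 on day 3 and between -0.26 and -0.09 on day 7. On day 1 it was below 0 in 4 of the 11. In the MHC part 13 of 18 windows had at least 10 such regions. Of these 13, 12 were below 0 on day 3 and 12 on day 7, and 1 was below 0 on day 1. The exception on day 3, at 0.03, was the window from 30.75 to 31.00 Mb, which held 6 of the gained regions. The window from 31.50 to 31.75 Mb held 6 as well, and its day 3 median was -0.15.

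Against the genome-wide background, the step between days 1 and 3 carried most of the change. Its median was -0.17 in the histone part, -0.14 in the MHC part and -0.15 over the genome, so both parts were near the genome. The step between days 3 and 7 was 0.02, 0.04 and 0.02. Scaled instead to the median of all regions, the changes from day 0 were the same on days 1 and 3. They were -0.07 in the histone part and -0.03 in the MHC part, with no step between these days. Of the 254 histone regions, 122 (48%) had their highest summit of all 4 days on day 1, against 50.4% in the MHC part and 51.5% in the genome. Another 112 (44.1%) were highest on day 0, against 29.3% and 23.8%. The summits stayed in place: the median distance from the day 0 summit was 20, 19.5 and 21 bp on days 1, 3 and 7 in the histone part, 23, 26.5 and 26 bp in the MHC part and 31, 32 and 33 bp over the genome.

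Large changes at regions with a peak on every day were rare. A summit at least 2-fold higher than on day 0 was found at 2, 1 and 1 of 254 histone regions on days 1, 3 and 7 (0.787%, 0.394% and 0.394%). In the MHC part it was found at 4, 5 and 3 of 276 (1.45%, 1.81% and 1.09%), against 3.89%, 4.02% and 2.22% of all such regions. A summit at least 2-fold lower was found at 1, 0 and 3 histone regions (0.394%, 0% and 1.18%) and at 0 MHC regions on each day. The genome-wide shares were 0.00987%, 0.0707% and 0.0625%. Rises were thus rarer than in the genome, and histone falls on days 1 and 7 were more frequent, though they were only 1 and 3 regions. The contrast in rises was not matched for height. At day 0 summits of at least 15 times the background, rises numbered 4, 0 and 0 of 21682 over the genome. Below that height they were found at 2, 1 and 1 of 54 histone regions (3.7%, 1.85% and 1.85%). The MHC shares there were 3.05%, 3.82% and 2.29%, and those of the genome 6.03%, 6.25% and 3.46%. By the authors' fold 0 histone regions were 2-fold lower on any of the 3 days.

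The largest rise of the stretch was in the MHC part, at chr6:32170812-32172205. Its summit held 28 reads on day 0 and 126, 171 and 111 on days 1, 3 and 7, or 4.41, 20.8, 25.4 and 18.2 times the background. The ratio to day 0 was 4.72 on day 1 (interval 3.12 to 7.39), 5.76 on day 3 (3.85 to 8.92) and 4.12 on day 7 (2.7 to 6.48). Its peak widened from 276 bp to 1344, 1393 and 1258 bp. Relative to day 0, the local background stood at 1.93, 2.49 and 1.82 and the authors' fold at 2.48, 2.38 and 2.29. The nearest region with a peak on every day, chr6:32162784-32164457, lay 6.35 kb away and had the second tallest day 0 summit of the MHC part. Its ratios to day 0 were 1.03, 0.921 and 0.969, each with an interval that included 1.

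The other leading rises of the MHC part had the same course, with most of the rise by day 1 and a lower summit on day 7 than on day 3. At chr6:30836949-30837956 the reads were 35, 113, 121 and 78 on days 0, 1, 3 and 7, with a day 1 ratio of 3.39 (interval 2.3 to 5.1). At chr6:31136599-31138181 they were 35, 101, 116 and 81, with a day 1 ratio of 3.03 (interval 2.04 to 4.59), and the peak widened from 442 bp to 1508 bp on day 3. At chr6:31545915-31546722 they were 48, 107, 147 and 83. The day 7 summits of these 4 regions were 0.716, 0.711, 0.77 and 0.622 times those of day 3, and the interval of the third, 0.572 to 1.03, included 1. The fifth region past 2-fold on day 3, chr6:29935225-29935844, was named after its values were seen. It had 24 reads on day 0 and 57 on day 3.

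In the histone part the largest rise was at chr6:27850177-27851080, with 42, 122, 139 and 95 reads. The ratio to day 0 was 3.05 on day 1 (interval 2.13 to 4.44), 3.12 on day 3 (2.2 to 4.52) and 2.35 on day 7 (1.62 to 3.47), and the authors' fold was 2.06, 2.15 and 1.89 times that of day 0. The peak widened from 335 bp to 846, 741 and 749 bp. At chr6:27630102-27631381 the reads were 63, 144, 117 and 87, so that the ratio was highest on day 1 (2.4, interval 1.77 to 3.28) and lowest on day 7 (1.44, interval 1.03 to 2.02). The next, chr6:27500638-27501258, had 38, 65, 65 and 57 reads. At chr6:28092127-28092728, with 27, 39, 44 and 40 reads, the intervals of all 3 ratios included 1.

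The clearest falls of the stretch were in the histone part. At chr6:28790911-28791566 the summit held 53 reads on day 0 and 22, 35 and 23 on days 1, 3 and 7. The ratios were 0.436 (interval 0.252 to 0.729), 0.623 (0.394 to 0.972) and 0.451 (0.264 to 0.749), and the authors' fold went from 6.09 to 3.27, 4.66 and 3.38. At chr6:28660675-28661240 the reads were 105, 72, 78 and 44, and at chr6:26701536-26702010 they were 93, 73, 65 and 44. Both reached their lowest height on day 7, at 0.436 (interval 0.299 to 0.625) and 0.492 (interval 0.336 to 0.711) of day 0. The largest falls of the MHC part were smaller: chr6:31657294-31657595 had 60, 37, 43 and 39 reads, chr6:29673324-29673860 had 69, 53, 46 and 46, and chr6:30186947-30187527 had 80, 53, 52 and 67.

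**Figure D5:**
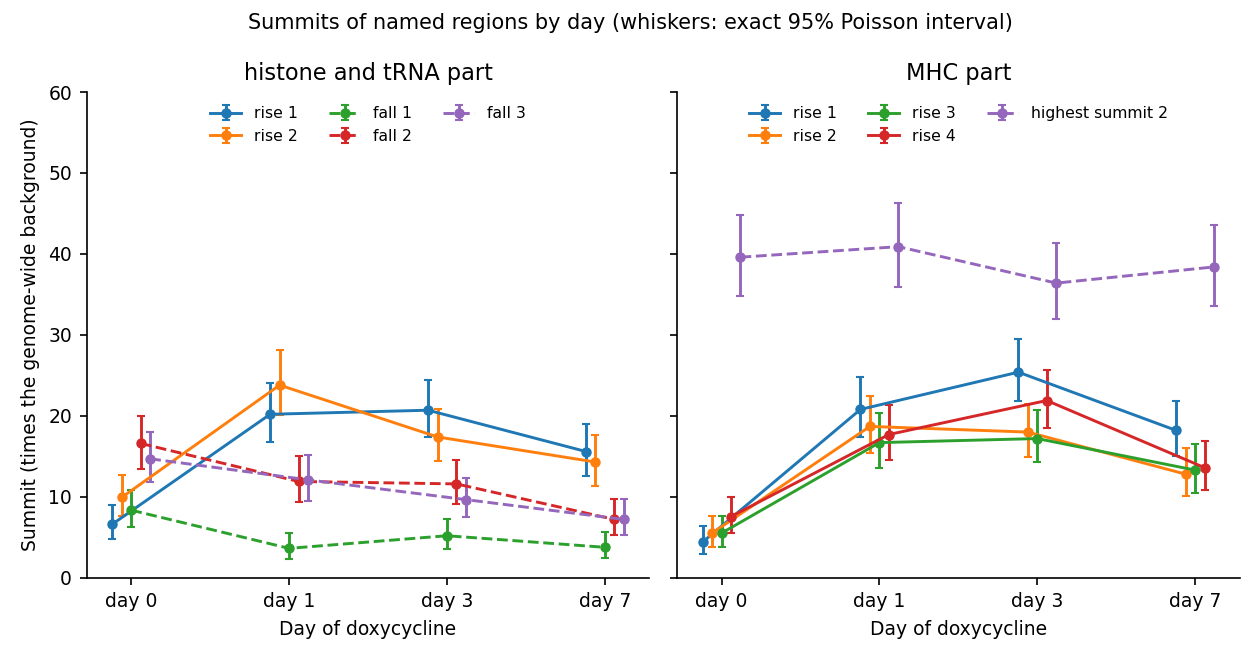
Scaled summits (y axis, times the genome-wide background) by day (x axis) at the leading rises and falls of the histone and tRNA part (left) and at the leading rises and the second tallest region of the MHC part (right); whiskers are exact 95% Poisson intervals of the summit reads. MHC rise 1 goes from 4.41 to 25.4 on day 3, while the tall region 6.35 kb away stays between 36.4 and 40.9.

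The surroundings of the leading rises and falls were read in regions present on every day, since only these have a ratio for each day. For the 8 leading rises, the nearest such region on either side lay at 0.258 to 30.4 kb. Of these 16 neighbours, 0 were at least 2-fold higher on any induced day, and their ratios to day 0 ran from 0.52 to 1.25. For the 6 leading falls, the 12 neighbours had ratios of 0.705 to 1.12. The lowest neighbour ratio beside a rise was at chr6:27499689-27500379, which lay 0.258 kb from the region that began at 27500638. It had 110 reads on day 0 and 55 on day 7 (ratio 0.52, interval 0.369 to 0.725), while the region beside it went from 38 to 57.

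This choice of neighbours leaves out regions that appeared or disappeared, and some of those lay closer. With regions of any pattern taken, 9 of the 16 nearest neighbours of the rises were present on every day, 4 had no day 0 peak and 3 had a day 0 peak but lacked a later one. Beside the falls the counts were 8, 1 and 3 of 12. Before histone fall 3 (chr6:26701536-26702010), the region on day 0 alone at chr6:26687213-26687674 lay 13.9 kb away, and chr6:26673493-26673997 went from 43 reads on day 0 to 21 and 23 on days 1 and 3 and had no day 7 peak. Beyond histone fall 2 (chr6:28660675-28661240), chr6:28678131-28678936 had 92, 83, 82 and 55 reads and chr6:28687125-28687898 had 126, 91, 105 and 77, day 7 log2 changes of -0.69 and -0.65. These 3 regions, lower or absent on day 7, were named after their values were seen and do not show a fall of the whole surroundings. Others nearby fell less or not at all. The day 7 log2 change was -0.27 at chr6:28687955-28689120, 0.09 at chr6:28696290-28697377 and 0.00 at chr6:26659430-26660705. The 2-fold rise at chr6:29935225-29935844 had a gained region on either side, chr6:29933615-29934188 and chr6:29935967-29936401.

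Around the 8 named gained regions, 7 of the 16 nearest regions of any pattern were present on every day, 5 had no day 0 peak (3 of them gained on all 3 induced days) and 4 had a day 0 peak but lacked a later one. The gained histone region chr6:28127833-28128682 lay 0.708 kb from a region seen on day 0 alone, and a weaker gained region, chr6:28130296-28130591, followed with 35, 34 and 28 reads. The nearest regions present on every day around gained MHC region chr6:29415272-29415881 were 91.4 and 104 kb away and had 25 and 28 reads on day 0. That gained region lay in the window chr6:29250001-29500000, where 4 of 10 regions were gained on each of days 1, 3 and 7 and 1 region was present on every day.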

How the data were processed

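ATAC-seq of G401 cells (8 samples) was deposited as 1 file that joins 4 peak lists, 1 for each day. Per the submitters' processing notes, the tools were Bowtie2, deepTools and MACS2 version 2.1.1.20160309, on hg19. Not given in the sources used here: how reads were filtered or offset for the transposase, and whether replicates were pooled. The deposited score of a peak is its -log10 q times 10 without the decimals, in 100% of peaks. The deposited fold, a ratio by the authors' caller, sets the summit against the local background. The deposited p-value is given as -log10 p, the deposited q-value as -log10 q, and the summit as an offset in bp. Peaks were used as deposited; in each list 0 peak numbers were missing within the stretch.

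Summit reads were recovered from fold, taken as (reads + 1) / (background + 1), and the Poisson -log10 p. A whole number fitted all 411408 peaks within 0.005 in -log10 p. The recovery and the assignment of regions to days were also tested on simulated data. Each day's value in a merged region is that of its highest summit. An overlap of 1 bp counted as shared. With 1 list per day no test was made, and called means at least 2-fold. Shares and medians are set beside those of all regions. The members, gene lists and limits were chosen with earlier results of these data known.

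Named in each part were the 3 highest day 0 summits and folds, the 4 largest rises and 3 largest falls by mean log2 change, the 4 gained regions whose lowest fold over the 3 days was highest, the 2 widest, the 2 highest of each minor pattern (the text gives 1), and the densest 100 kb and longest gap. Tools were Python 3.11.15, NumPy 2.4.6, pandas 2.3.3, SciPy 1.17.1 and matplotlib 3.10.9. Coordinates are 1-based hg19. Gene order came from a RefSeq table of GRCh38.p14, whose coordinates were not used. The gene order of the MHC part is not reported here.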

Additional observations from a re-analysis of the deposited data

How the results depend on the processing

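No paired analysis was possible because the lists hold no value per replicate, and for the same reason no replicate could be left out. Of 176 alternative values, 127 stayed within the limits set for them, 49 moved and 0 reversed the sign of a called value. The median summit changes were below 2-fold and so were not called. In both parts their sign did change under an alternative. On day 1 this was the scaling to the median of all regions, and on days 3 and 7 it was the authors' fold. With lists of equal length, regions gained on all 3 induced days made up 0.958% of the histone part and 5.15% of the MHC part, regions on day 0 alone 6.71% and 10.3%, and regions on every day 63% of the MHC part. By the authors' fold the median log2 changes on days 3 and 7 were 0.02 and 0.04 in the histone part and 0.01 and 0.08 in the MHC part. Regions at least 2-fold higher then numbered 1 on day 1 and 0 on day 7 in the histone part, and 2 and 1 in the MHC part; those 2-fold lower numbered 0 on days 1 and 7 in the histone part. The mean log2 change of the largest MHC rise was 1.25 by fold. Scaled to the median of all regions on every day, the median changes on days 1, 3 and 7 were -0.07, -0.07 and -0.11 in the histone part and -0.03, -0.03 and -0.01 in the MHC part. At day 0 summits of at least 15 times the background, an alternative added after seeing the data, the MHC medians were 0.03 on day 1 and -0.16 on day 3. Strong peaks gained in the histone part on days 1, 3 and 7 numbered 8, 9 and 6 at a fold limit of 4, 3, 5 and 1 at a limit of 5, and 1 on days 1 and 7 with a reciprocal overlap of 50%. In the MHC part they numbered 14, 20 and 13 at a limit of 4, and 6 and 7 on days 1 and 7 at a limit of 5. Strong peaks lost in the histone part numbered 1, 1 and 4 at a limit of 4, 1, 1 and 2 at a limit of 5, and 1 on days 1 and 7 with the reciprocal overlap. In the MHC part they numbered 1, 3 and 2 at a limit of 4, and 1 on day 3 with the reciprocal overlap. The causes of these shifts were not tested. The smallest summits held 16 to 18 reads, so changes at single weak regions were not detectable at this depth unless large. Every statement about day 0 rests on the list identified by elimination.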
